A study of Saccharomyces cerevisiae x Saccharomyces kudriavzevii with 6 samples.

Results

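The genes described here were 50 yeast ORFs listed as assembly factors of the large (60S) ribosomal subunit. They were picked by their systematic names, without use of any measured value, though earlier results of these data were known. Of the 50, 48 had a row among the 5616 ORFs of the table. YNR038W and YFR001W had none. A value was present on all 6 arrays for 26 of the 48, on 5 arrays for 15, on 4 arrays for 5, on 3 arrays for 1 and on 2 arrays for 1 (YLR106C). The deposited values carry no gene names, and the study names 1 of the 48, *NUG1* (YER006W), so the others are given by systematic name.

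The ratios came from 2 natural *Saccharomyces cerevisiae* x *Saccharomyces kudriavzevii* wine hybrids, W27 and VIN7, each fermenting natural must of the Tempranillo grape at 12°C and at 28°C. Cells were taken early in the exponential phase, and the labels call the 3 arrays of each strain, A, B and C, biological replicates. On each dual-colour array, cDNA from 12°C was hybridised against cDNA from 28°C of the same strain, so that every value is a log2 ratio of 12°C over 28°C and 0 means no difference. The 12°C sample carried Cy5 on 5 arrays and Cy3 on VIN7 C, the 1 dye swap. Both hybrids are allotriploid and have lost part of the *S. kudriavzevii* genome. The spots were amplified from ORFs of the *S. cerevisiae* laboratory strain S288c and were hybridised under conditions that let *S. kudriavzevii* transcripts bind, so a spot reads the alleles of both parents together. A ratio gives no level, and less of a transcript in the labelled cDNA cannot be told apart from more of the others. According to the methods, a strain was fermented 2 times independently and each fermentation was sampled 3 times, so the 3 arrays of a strain may stand for no more than 2 fermentations. With n = 3 arrays, the SDs and p-values measure the spread between these arrays, which may be partly technical.

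Ribosome assembly begins in the nucleolus, where the rRNA precursor is transcribed, cut, modified and folded while ribosomal proteins join it. Assembly factors bind the large-subunit precursor for a time and leave again. They include DEAD-box RNA helicases, rRNA methyltransferases such as Nop2, scaffold proteins of the complex that holds Nop7 and Erb1, GTPases such as Nug1, Nog1 and Nog2 that act as timers of single steps, Rpf2, which brings in the 5S RNA particle, and Nmd3, the adaptor for export to the cytoplasm. In yeast, genes for these factors are usually expressed together and follow the rate of growth. Cold slows the folding of rRNA, and ribosome assembly is a step known to be sensitive to low temperature.

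On 5 of the 6 arrays the median ratio of the assembly factors was below 0, and on W27 A it was above 0. The median log2 ratio of the members in W27 was 0.27 for array A (19 of 45 below 0), -0.28 for array B (25 of 46) and -0.47 for array C (27 of 36). In VIN7 the median was -0.45 on array A (30 of 44 below 0), -0.25 on array B (19 of 37) and -0.32 on array C (38 of 48). Over all ORFs, the 3 W27 arrays had medians of -0.11, -0.05 and 0.08, and the VIN7 arrays of -0.01 on VIN7 A, 0.06 on VIN7 B and -0.01 on VIN7 C. The members' median thus lay below the array's median on 5 arrays and above it on 1. Between 46.8% and 52.9% of all ORFs were below 0 on each array. The share of members below 0 was near that of all ORFs on W27 B (54.3% against 52.4%) and VIN7 B (51.4% against 48.1%). It was larger on W27 C (75% against 46.8%), VIN7 A (68.2% against 50.6%) and VIN7 C (79.2% against 51.2%). No test was made of these medians.

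**Figure D1:**
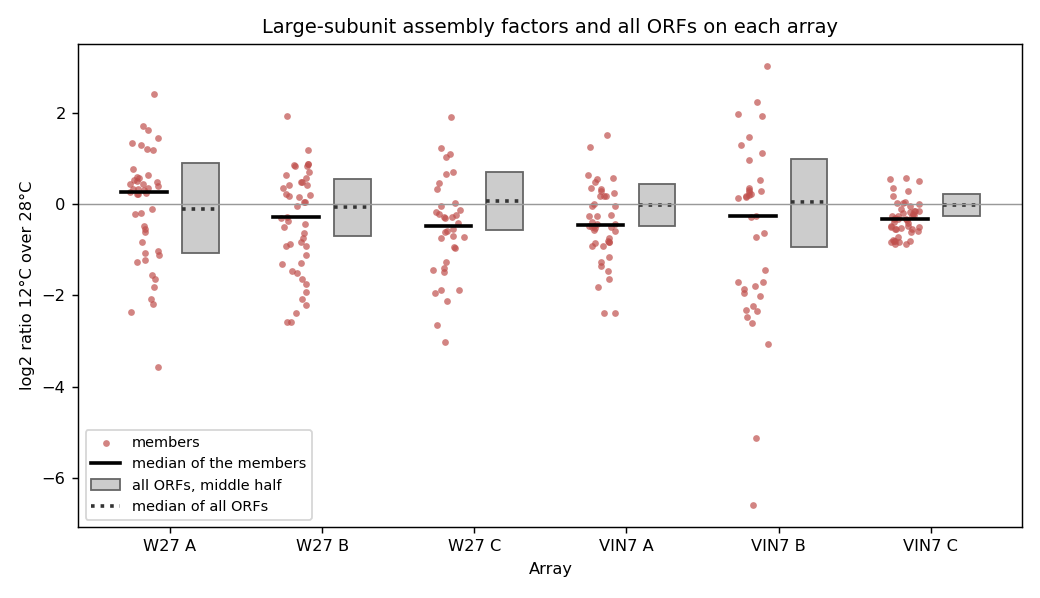
Log2 ratio of 12°C over 28°C (vertical axis) on the 6 arrays (horizontal axis). Points are members and solid lines their median, grey boxes the middle part of all ORFs from the lower to the upper quartile, and dotted lines the median of all ORFs; the members' median is 0.27 on W27 A and lies between -0.47 and -0.25 on the other arrays.

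W27 A stood apart from the other arrays. Over the members it correlated with W27 B at r = -0.41 (44 members) and with W27 C at r = -0.43 (35 members), whereas W27 B and W27 C correlated at r = 0.82 (36 members). Over all ORFs with both values the same correlations were -0.14, -0.19 and 0.79. All 3 W27 arrays have the 12°C sample in Cy5 according to the labels, so the direction was kept as deposited. Of the 27 members that lay on the same side of 0 on W27 B and C, 20 lay on the other side on W27 A (74.1%), against 1685 of 2836 ORFs overall (59.4%). Large-subunit ribosomal protein genes moved with it: 64 of 72 were above 0 on W27 A with a median of 2.60, and on W27 B the count was 18 of 72 with a median of -0.47. Their part in the result was not tested. The counts of W27, and the W27 means that are tested, are therefore given with and without W27 A. These correlations are across genes of 1 array pair, and genes are not independent replicates.

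**Figure D2:**
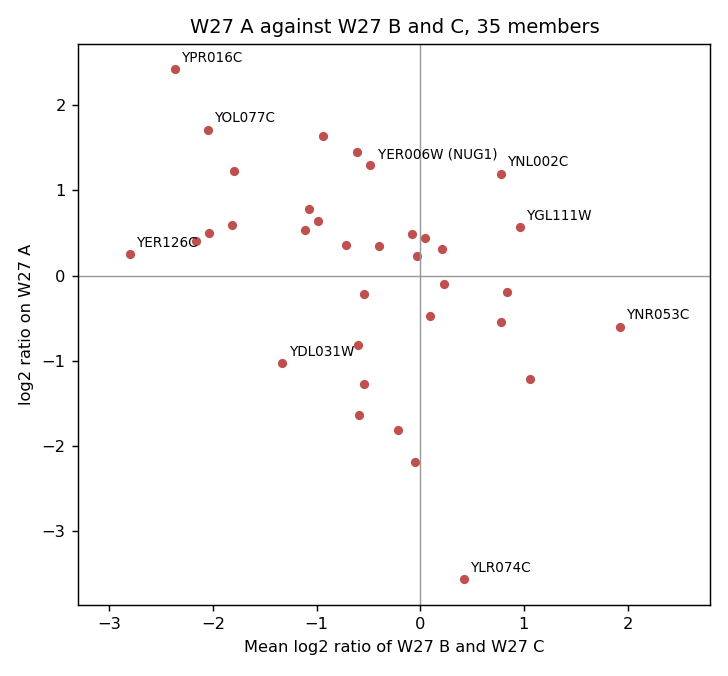
Each point is 1 of the 35 members with 3 values in W27, placed by its mean log2 ratio of W27 B and W27 C (horizontal axis) and its log2 ratio on W27 A (vertical axis). Points at the upper left, such as YPR016C and YOL077C, are the 14 members below 0 on both W27 B and W27 C and above 0 on W27 A.

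In W27, many assembly factors had ratios below 0 on both arrays B and C, and most of these had ratios above 0 on array A. Of the 36 members with values on both B and C, 19 were below 0 on both (52.8%) and 8 above 0 on both (22.2%). Of the 19, 14 were above 0 on W27 A (73.7%) and 5 below. Among the 1474 ORFs with 3 values that were below 0 on B and C, 53.8% were above 0 on W27 A. Of all 3938 ORFs with values on B and C, 39.4% were below 0 on both and 39.3% above 0 on both. Counting W27 A as well, 5 of 35 members were below 0 on all 3 arrays (YDL031W, YDR101C, YHR170W, YHR197W and YPL043W) and 2 were above 0 on all 3 (YGL111W and YNL002C), against 18.8% and 13% of all 3613 ORFs with 3 values.

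Over the 3 W27 arrays no member passed a false discovery rate of 5% (limma, 45 members tested, smallest adjusted p among them 0.661), and neither did any of the 4894 ORFs tested (0%). At an unadjusted p under 0.05 there were 356 ORFs, of which 1 was a member, YDL031W. One-class significance analysis of microarrays (SAM), a test the study names, called 5 ORFs of 3613 and no member. By the cut-off of a median change of at least 2-fold, 10 of 45 members were lower at 12°C, where 10.8% of all ORFs were, and 1 was higher, YNR053C, where 10.3% of all ORFs were. The 10 were YDL031W, YER126C, YJL122W, YKL009W, YKR081C, YOL077C, YOR206W, YPL093W, YPL211W and YPR016C. Without W27 A the lower members were 10 of 36, against 13.7% of all ORFs, and without W27 B they were 4 of 35 (11.4%), against 10.4%, so that the surplus over the background was not seen without W27 B. The higher members were 2 of 36 without W27 A, against 12.1%, and 0 of 35 without W27 B, against 11.1%.

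Without W27 A, on arrays B and C alone, limma called 12 of 36 members lower at 12°C and 6 higher. Over all 3938 ORFs tested, 19.6% were called lower and 19.5% higher, so that the members stood above the background on the lower side and not on the higher side. The 12 called lower were YDL031W, YER126C, YHR085W, YKL009W, YKR081C, YLR009W, YNL061W, YOL077C, YOR272W, YPL093W, YPL211W and YPR016C. Those called higher were YGL099W, YGL111W, YHR088W, YLL034C, YNL002C and YNR053C. These calls rest on a pair of arrays that may come from the same fermentation, and none was made when W27 A was kept with equal weight. W27 A was set apart because it disagreed with W27 B and C in these same values, and that choice favours small p-values. The calls are therefore no independent support for single members. Without W27 B, 0 of 35 members were called, and without W27 C, 0 of 44. The adjusted p-values given below for W27 B and C alone carry the same limit. The 12°C sample was in Cy5 on every W27 array, so dye and temperature cannot be told apart in these calls. With array weights, under which W27 A weighed 0.158 against 2.94 for W27 B and 2.15 for W27 C, 13 of 45 members were called lower and 6 higher, against 18.8% and 16.8% of 4894 ORFs. The 13 were the 12 above and YDR060W, and the 6 were those above, with YGL099W at the threshold (adjusted p = 0.05, limma). YDR060W had values on W27 A and B alone, 0.23 and -1.64, so its call rested almost wholly on W27 B.

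YER126C had the lowest mean of all members in each strain. In W27 it stood at 0.25, -2.59 and -3.01 (arrays A, B and C). On W27 B and C alone its mean was -2.80 ± 0.27 (SE, adjusted p = 3.88e-04, limma), and this spread between a pair of arrays may be technical. In VIN7 the values were -2.38, -6.60 and -0.81 on arrays A, B and C. All 5 arrays other than W27 A were thus well below 0, with a spread of more than 5 log2 units between VIN7 B and VIN7 C.

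YPR016C stood at 2.42 on W27 A, the highest value of any member on that array, and at -2.08 and -2.65 on the other W27 arrays. In VIN7 it was -1.47 on array A and -0.51 on array C, with no value on array B. YKR081C stood at 0.40, -2.38 and -1.95 on W27 A, B and C, and at -1.82, -0.25 and -0.49 on VIN7 A, B and C. Both ORFs were lower at 12°C on every array with a value except W27 A.

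YOL077C and YKL009W had the same shape. The values of YOL077C were 1.71, -2.21 and -1.89 in W27 and -1.27, -5.13 and -0.80 in VIN7, each in the order A, B and C. Those of YKL009W were 0.60, -1.75 and -1.89 in W27 and -1.35, -3.07 and -0.88 in VIN7. VIN7 B was the lowest array for both, VIN7 C the mildest below 0, and W27 A the only array above 0. YPL211W, without a value on VIN7 B, stood at 0.50, -2.59 and -1.49 in W27 and at -2.39 and -0.87 on VIN7 A and C.

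YDL031W differed from these in being below 0 on W27 A too. It stood at -1.03, -1.92 and -0.74 on W27 A, B and C (mean -1.23 ± 0.62, SD, n = 3, adjusted p = 0.661, limma). Its mean on W27 B and C alone was -1.33 (adjusted p = 0.00899, limma). In VIN7 it stood at -0.92, 0.31 and 0.59 on arrays A, B and C. The W27 values all lay below those of VIN7 B and VIN7 C, and VIN7 A lay among them.

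A smaller number of members ran the other way. YNR053C stood at -0.60, 1.93 and 1.92 on W27 A, B and C and at 1.52, 1.94 and -0.26 on VIN7 A, B and C. Its mean on W27 B and C alone was 1.93 ± 0.26 (SE, adjusted p = 6.25e-04, limma), the highest of any member. On 4 arrays it was more than 2-fold higher at 12°C, and on W27 A and VIN7 C it was below 0.

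YGL111W was above 0 on 5 arrays, at 0.57, 0.88 and 1.04 in W27 and at 0.35, 0.19 and -0.14 in VIN7. YNL002C stood at 1.20, 0.88 and 0.67 in W27 and at -0.24, 1.31 and -0.72 in VIN7. These 2 were the members above 0 on every W27 array. YLL034C stood at -1.21, 0.87 and 1.24 in W27 and at -0.50, 2.25 and -0.03 in VIN7, so that its sign changed within both strains. YGL099W, at -0.54, 0.84 and 0.71 in W27 and at 0.18, 3.04 and -0.30 in VIN7, did the same. YHR088W stood at -0.20, 0.58 and 1.10 in W27 and stayed between -0.32 and 0.30 in VIN7.

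**Figure D3:**
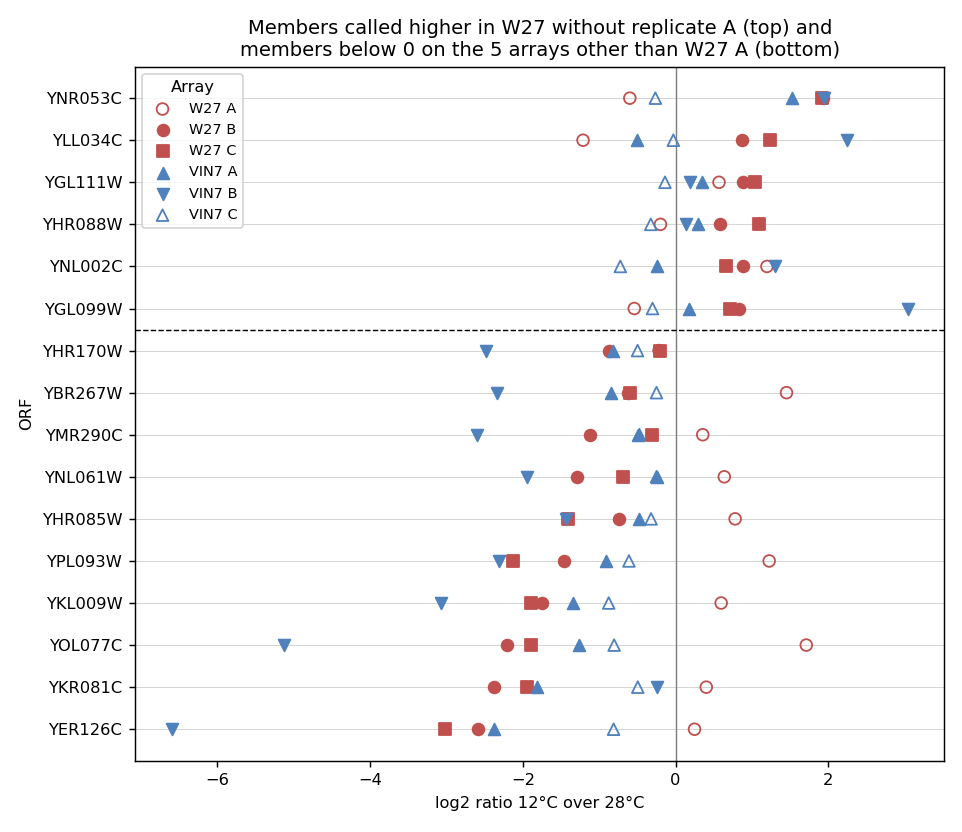
Log2 ratio of 12°C over 28°C (horizontal axis) of 16 members, 1 per line, with red symbols for the W27 arrays and blue symbols for the VIN7 arrays. Above the dashed line are the 6 members called higher in W27 without array A, and below it the 10 members under 0 on the 5 arrays other than W27 A, where the open red circle of W27 A lies right of 0 for all but YHR170W.

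In VIN7, more members were lower at 12°C than higher. Of 33 members with 3 values, 11 were below 0 on all 3 arrays (33.3%) and 2 above 0 on all 3, YLR074C and YNL182C (6.06%). Among the 3359 ORFs with 3 values, 16.2% were below and 24.4% above, so the balance of the members ran against that of the array. The 11 were YBR267W, YER126C, YHR085W, YHR170W, YKL009W, YKR081C, YMR290C, YNL061W, YNL110C, YOL077C and YPL093W. Of the 48 members with at least 2 values, 34 had a mean below 0, and the median of the means was -0.40, against -0.02 over all 5100 ORFs.

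No member of VIN7 passed a false discovery rate of 5% (limma, 48 tested, smallest adjusted p 0.612), and none of the 5100 ORFs did (0%). At an unadjusted p under 0.05 there were 279 ORFs, among them 6 members, all lower at 12°C: YER126C, YHR052W, YKL009W, YNL110C, YPL093W and YPL211W. SAM called 11 ORFs of 3359 and no member. A median at least 2-fold lower was found for 6 of 48 members, against 4.1% of all ORFs, and a median at least 2-fold higher for 2 of 48 (YLR106C and YNR053C), against 5.71%. The lower members were 12 of 37 without VIN7 A, against 11.3% of all ORFs, and 10 of 33 without VIN7 C, against 13.7%. The higher members were 0 of 44 without VIN7 B, against 2.27%.

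The arrays of VIN7 differed widely in spread. On VIN7 C every member lay between -0.88 and 0.59, and on VIN7 B between -6.60 and 3.04. YPL093W stood at 1.23, -1.47 and -2.12 on the W27 arrays, against -0.92, -2.31 and -0.61 on VIN7 A, B and C (mean of VIN7 -1.28 ± 0.91, SD, n = 3). YHR170W stood at -0.22, -0.88 and -0.20 in W27 and at -0.83, -2.48 and -0.50 in VIN7, and was the only member below 0 on all 6 arrays.

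YMR290C stood at 0.36, -1.12 and -0.31 in W27 and at -0.50, -2.59 and -0.47 in VIN7. YBR267W was at 1.45, -0.63 and -0.60 in W27 and at -0.84, -2.34 and -0.25 in VIN7. YNL061W stood at 0.64, -1.29 and -0.69 in W27 and at -0.24, -1.94 and -0.25 in VIN7. In all 3 the value of VIN7 B was more than 1 log2 unit under the other VIN7 arrays, and W27 A was the only array above 0. YHR085W, at 0.78, -0.74 and -1.41 in W27 and at -0.47, -1.43 and -0.32 in VIN7, had the same signs. YNL110C stood at 0.49, 0.43 and -0.58 in W27 and at -0.59, -1.79 and -0.84 in VIN7, so that W27 was split and VIN7 was not.

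Among members with missing values, YLR009W stood at 0.54, -1.31 and -0.93 on the W27 arrays and at -0.80 and -0.57 on VIN7 A and C. YJL122W was below 0 wherever it was measured, at -1.54 and -0.82 on W27 A and B and at -1.64 and -0.55 on VIN7 A and C. YHR197W was too, at -1.27, -0.36 and -0.72 in W27 and at -0.47 and -0.53 on VIN7 A and C. These last 2 had no value above 0 on any array. YDR060W stood at 0.23 and -1.64 on W27 A and B and at -0.43 and -0.22 on VIN7 A and C, and YOR272W at 1.64, -0.91 and -0.97 in W27 and at -0.43, 0.54 and -0.48 in VIN7.

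YKL172W, among the highest VIN7 means, stood at -0.47, 0.21 and -0.03 on the W27 arrays and at 1.25, 0.15 and -0.19 on VIN7 A, B and C. Its VIN7 mean of 0.40 was -0.02 without VIN7 A. YDR101C stood at -1.81, -0.27 and -0.17 in W27 and at -0.84, 0.96 and -0.41 in VIN7. The sign of both ORFs changed between arrays of VIN7.

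**Figure D4:**
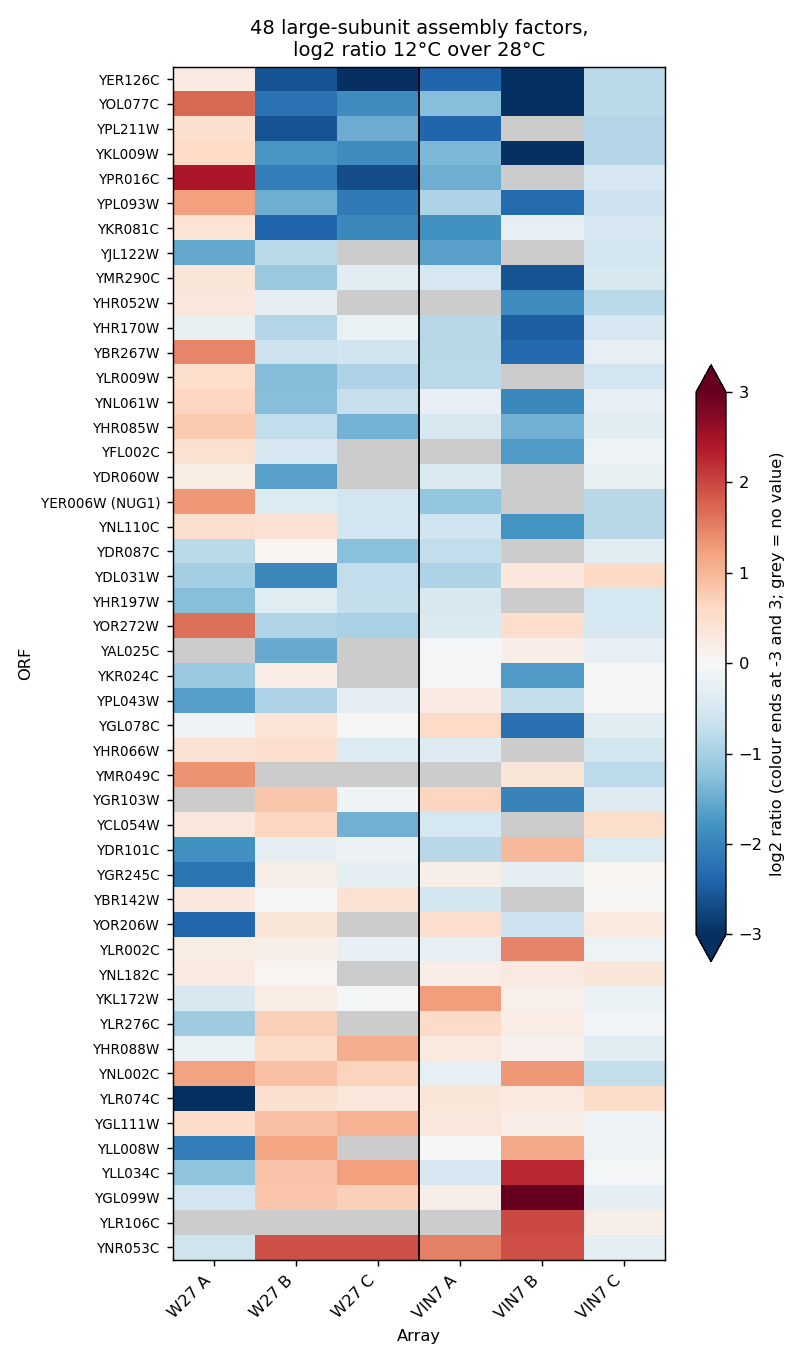
Log2 ratio of 12°C over 28°C of the 48 members (rows) on the 6 arrays (columns), blue for lower and red for higher at 12°C, grey for no value, sorted from the lowest to the highest mean over the 5 arrays other than W27 A. Colours end at -3 and 3, and the values beyond them are YER126C at -6.60 and YOL077C at -5.13 on VIN7 B, YKL009W at -3.07 and YGL099W at 3.04 on VIN7 B, YER126C at -3.01 on W27 C and YLR074C at -3.57 on W27 A.

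Across both strains, 10 of the 26 members with 6 values were below 0 on all 5 arrays other than W27 A, against 10.7% of the 2674 ORFs with 6 values. These were the 11 members that were below 0 on every VIN7 array, without YNL110C. A single member, YLR074C, was above 0 on those 5 arrays, against 14.6% of all ORFs. It stood at 0.49 and 0.35 on W27 B and C and between 0.30 and 0.56 on the VIN7 arrays, and at -3.57 on W27 A, the lowest value of any member on that array. Of the 10 members below 0 on 5 arrays, 9 were above 0 on W27 A, as were 191 of the 285 ORFs below 0 on the same arrays. With W27 A kept, 1 of the 26 members was below 0 on all 6 arrays, against 94 of 2674 ORFs. Above 0 on all 6 were 0 members, against 96 ORFs. The surplus below 0 was thus not seen with W27 A kept.

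The average of both strains passed a false discovery rate of 5% for no member (limma, 45 tested, smallest adjusted p among them 0.422) and for none of 4670 ORFs (0%, smallest adjusted p 0.0625). At an unadjusted p under 0.05 there were 495 ORFs and 7 members, lower for YER126C, YHR170W, YJL122W, YKL009W, YKR081C and YPL211W and higher for YNR053C. When each array was weighted by its agreement with the fit, 19 of 45 members were called lower and 2 higher (YGL111W and YNR053C), against 17.8% and 14.7% of all ORFs. The 19 were YBR267W, YDL031W, YDR060W, YER006W, YER126C, YHR085W, YHR170W, YHR197W, YJL122W, YKL009W, YKR081C, YLR009W, YMR290C, YNL061W, YOL077C, YOR272W, YPL093W, YPL211W and YPR016C. In that fit W27 A and VIN7 B had the lowest weights, 0.137 and 0.236. With equal weights no member was called on the deposited scale, and 1, YER126C, was called with arrays centred and scaled.

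*NUG1* (YER006W), which encodes a GTPase involved in rRNA export, was the member the study followed by name. Its W27 values were 1.29, -0.42 and -0.54 (arrays A, B and C), with a mean of 0.11 ± 1.03 (SD, n = 3, adjusted p = 0.973, limma). In VIN7 it stood at -1.16 on array A and -0.82 on array C, with no value on array B, and a mean of -0.99 ± 0.24 (SD, n = 2, adjusted p = 0.612, limma). W27 A was the only array on which *NUG1* was higher at 12°C, and without it the W27 mean was -0.48. W27 minus VIN7 was 1.10 ± 0.75 (SE, adjusted p = 0.893, limma), and 0.51 without W27 A. All 3 W27 values lay above both VIN7 values, and the share of all ORFs separated in this way was not counted. With array weights *NUG1* was called lower at 12°C over both strains, at -0.73 (adjusted p = 0.0144, limma), where its adjusted p ranged over the alternatives from 0.0144 to 1.

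The difference between the strains was tested for each member. No member passed a false discovery rate of 5% for W27 minus VIN7 (limma, 45 tested), none of 4670 ORFs did (0%, smallest adjusted p 0.893), and no member had an unadjusted p under 0.05, against 147 ORFs in all. The difference was above 0 for 26 of the 45 members and below 0 for 19, with a median of 0.13, against -0.02 over all ORFs. Without W27 A the median of the members was -0.04. Among the 26 members with 6 values, the W27 values all lay above the VIN7 values for 2, YGL111W and YNL110C, and all below for none, against 138 and 264 of 2674 ORFs. With 3 arrays against 3, an exact permutation test of 1 gene cannot give a two-sided p under 0.1.

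The largest positive differences were those of YOL077C (1.60 between the means), YER126C (1.48), YHR052W (1.35), YBR267W (1.22) and YNL110C (1.18). The values of YHR052W were 0.34 and -0.30 on W27 A and B and -1.85 and -0.81 on VIN7 B and C. All W27 values of YHR052W thus lay above those of VIN7, on 2 arrays each. The share of all ORFs separated in this way on 2 arrays each was not counted. For YOL077C and YER126C the lowest array was VIN7 B and a W27 array was above 0, and the difference of YER126C was -0.19 without VIN7 B and 0.46 without W27 A. That of YOL077C was 0.24 without VIN7 B and 0.35 without W27 A. That of YBR267W was 0.62 without VIN7 B and 0.53 without W27 A, and that of YNL110C was 0.99 without W27 A. The size of these differences thus rested largely on VIN7 B and W27 A for 3 of the 5.

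The largest negative differences were those of YLR074C (-1.31), YDL031W (-1.23), YOR206W (-1.05), YPL043W (-0.80) and YLL008W (-0.78). YOR206W stood at -2.36 and 0.36 on W27 A and B, against 0.49, -0.63 and 0.29 in VIN7, and YPL043W at -1.64, -0.92 and -0.27 in W27, against 0.25, -0.71 and 0.03 in VIN7. YLL008W stood at -2.07 and 1.19 on W27 A and B, against 0.02, 1.14 and -0.14 in VIN7. Apart from YDL031W, the lowest W27 value of each was that of W27 A, and the difference of YLR074C was 0.02 without it. Without W27 A the difference of YPL043W was -0.45 and that of YDL031W was -1.33, and YOR206W and YLL008W had 1 W27 value left. The difference of YLL008W was -0.38 without VIN7 B.

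The remaining members moved little or changed sign from array to array. YLR002C stood at 0.23, 0.17 and -0.24 in W27 and at -0.25, 1.49 and -0.15 in VIN7. YHR066W and YBR142W had W27 means of 0.18 and 0.24, or 0.04 and 0.21 without W27 A. YMR049C had 1 value in W27, 1.34 on array A, and YAL025C had 1, -1.50 on array B. YGR245C stood at -2.19, 0.17 and -0.29 in W27 and at 0.18, -0.28 and 0.06 in VIN7, so that W27 A alone was far from 0. YGL078C stood at -0.10, 0.42 and 0.03 in W27 and at 0.59, -2.23 and -0.34 in VIN7, where VIN7 B alone was. YGR103W had the same contrast within VIN7, at 0.66 on array A and -2.01 on array B. The other members, YCL054W, YDR087C, YFL002C, YKR024C and YLR276C, lay between -1.70 and 0.72.

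The members were also divided by what their gene products do. This division was made from general knowledge of yeast, not from a table given with the data, so no ORF is named by it and only counts of means below 0 are given. Over all members the counts were 29 of 45 in W27, 24 of 36 in W27 without array A, and 34 of 48 in VIN7, against 51.5%, 49.8% and 51.5% of all ORFs. DEAD-box helicases, which remodel RNA, had 6 of 8 means below 0 in W27 (2 of 4 without W27 A) and 6 of 8 in VIN7. Factors of export and cytoplasmic maturation had 4 of 5 (3 of 4 without W27 A) and 4 of 5. The 4 ribosomal-protein-like and placeholder factors had 3 of 4 in W27, with or without W27 A, and 3 of 4 in VIN7. In these groups most means were below 0 in both strains with all arrays kept.

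The 4 GTPases had 1 of 4 means below 0 in W27 (2 of 4 without W27 A) and 2 of 4 in VIN7, so that they were divided. Brix domain proteins had 2 of 4 in W27, with or without W27 A, and 3 of 4 in VIN7. AAA ATPases and the Rix1 complex had 2 of 4 (2 of 3 without W27 A) and 2 of 5. Among the remaining groups, most means were below 0 in both strains for the rRNA methyltransferases and the other nucleolar and nuclear factors. The rRNA methyltransferases had 2 of 2 in W27, with or without W27 A, and 2 of 2 in VIN7. The Nop7 complex had 1 of 2 in W27, with or without W27 A, and 3 of 3 in VIN7. Noc proteins had 2 of 3 (1 of 1 without W27 A) and 1 of 3, and the other nucleolar and nuclear factors 6 of 9 (6 of 8 without W27 A) and 8 of 10. The differences between groups were not tested.

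Other genes of ribosome synthesis were mostly below 0 in VIN7 and varied more between the arrays of W27. Of 38 other large-subunit assembly factors with a row, the share below 0 was 36.7%, 47.4% and 56.7% in W27 (arrays A, B and C), and 66.7%, 62.5% and 71.1% on VIN7 A, B and C. For 54 small-subunit processome and snoRNP proteins the shares were 51.1%, 69.4% and 51.2% in W27 and 66.7%, 65.7% and 64.8% in VIN7. Among genes with 6 values, the share below 0 on the 5 arrays other than W27 A was 38.5% of the 26 members, 23.5% of 17 other large-subunit factors, 26.9% of 26 small-subunit genes and 36.4% of 55 large-subunit ribosomal protein genes. The difference between these lists was not tested.

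The systematic names place the members on 15 of the 16 *S. cerevisiae* chromosomes, with 7 on chromosome XII, 6 on VIII and none on IX. W27 is described as having lost parts of its *S. kudriavzevii* chromosomes IV, IX and XV, and VIN7 as having lost chromosome III and parts of IV and VII. Of the members, 4 lie on IV, 3 on XV, 1 on III and 5 on VII. Which of these genes keep an *S. kudriavzevii* copy was not analysed here.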

How the data were processed

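Total RNA of both hybrids at 12°C and 28°C was compared on 6 dual-colour ORF arrays. The authors corrected the background in GenePix, normalised each array in Acuity, filtered spots by flag and adjusted print tip effects; the deposited values are log2 ratios. By the methods, arrays were normalised to a log2 ratio of 1, yet the median of each array lies near 0, so the centring actually used is unclear. Intensities were not used, so signal over background and the depth of each spot are unknown and the number of arrays limits the precision. No column of sample values was left unused (0).

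Members and comparison lists were chosen with earlier results of these data known. Each strain's mean was tested against 0 with limma 3.58.1 (lmFit and eBayes, R 4.3.3) over ORFs with values on at least 2 of its arrays, the strain difference and the average of both strains in 1 fit of the 6 arrays, with Benjamini-Hochberg adjustment over all ORFs tested and a threshold of 0.05. P-values are two-sided. Medians and counts were taken in Python 3.11.15 with pandas 2.3.3. The tests were checked on simulated data with equal, independent noise on every array. That check does not cover the unequal spread of these arrays or the disagreement of W27 A. Over all ORFs the SD was 0.392 on VIN7 C and 1.71 on VIN7 B. Values on every array were to be given for *NUG1*, members with 6 values, the 5 lowest and 5 highest strain means and differences, and members past a threshold. A planned naming of members by role was replaced by counts per role, since the study's material pairs a name with only 1 member, *NUG1*. For 9 ORFs of the member and comparison lists the study's supplementary material gives a name, and all 9 had the name the lists assumed. The comparison lists came from general knowledge of yeast. Alternatives were other centring and scaling, complete values only, array weights, turned signs, a dye term, a replicate block, SAM, and each array left out.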

Additional observations from a re-analysis of the deposited data

How the results depend on the processing

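Counts of called members were 0 in VIN7 and for W27 minus VIN7 under every alternative. In W27 the count was 19 of 45 with array weights (42.2%, against 35.6% of all ORFs), and over the omission of single arrays it ran between 0 and 18, the 18 of 36 being without replicate A (50%, against 39.1%). Over both strains it was 1 (YER126C) with arrays centred and scaled and 21 with array weights (46.7%, against 32.6%); the cause was not tested. Members at least 2-fold lower by the mean in VIN7 numbered 11 (22.9%, against 7.25% of all ORFs). At 4-fold there were 2 lower in W27 (4.44%, against 1.43%) and 1 in VIN7 (2.08%, against 0.333%), with 0 higher in either. Leaving out single arrays gave 4 to 10 lower and 0 to 2 higher in W27, of 35 to 44 members at 2-fold by the median. Of all ORFs, 10.4% to 13.7% were lower and 9.69% to 12.1% higher. In VIN7 there were 6 to 12 lower and 0 to 3 higher, of 33 to 44 members. Of all ORFs, 2.8% to 13.7% were lower there and 2.27% to 14% higher.

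Of 33 member means and differences followed, 23 kept their direction throughout. The W27 mean of *NUG1* (YER006W) was -0.029 with scaling, -0.42 with array weights, -0.75 with W27 A turned, and -0.48 to 0.44 with single arrays left out. In VIN7, YLL034C was -0.20 with array weights and -0.27 to 1.11 with arrays left out, YGL099W -0.059 to 1.61 and YKL172W -0.02 to 0.70. The difference W27 minus VIN7 with array weights was -0.64 for YER126C, -0.67 for YOL077C and 1.02 for YLL008W. With W27 A turned it was 1.29 for YLL008W, 1.07 for YLR074C, 1.31 for YOR206W and 0.29 for YPL043W. With arrays left out it ran from -0.19 to 2.71 for YER126C and from -2.01 to 0.017 for YLR074C.

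Equal replicate letters did not pair the arrays of W27 and VIN7 (correlations of deviations -0.11, 0.11 and -0.26 over 2674 ORFs), and a replicate block gave 0 called members, for the difference and for both strains. An exact test of 3 arrays cannot give a two-sided p under 0.25, and the dye and the replicate of VIN7 C cannot be told apart. In W27 the dye and the temperature cannot be told apart, since 12°C was in Cy5 on every array. With a dye term over both strains, 0 of 45 members and 32 of 4670 ORFs had an unadjusted p under 0.05 (limma). Without the term these were 7 members and 495 ORFs, and the reason for the drop was not tested.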

Other observations

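The arrays that resembled each other most over the members were not those of 1 strain only. VIN7 A correlated with W27 B at r = 0.77 (44 members) and with W27 C at r = 0.76 (36 members), and with VIN7 B at r = 0.54 (33 members) and VIN7 C at r = 0.50 (44 members). Over all ORFs with both values these were 0.66, 0.61, 0.36 and 0.37. VIN7 B and VIN7 C correlated at 0.46 over 37 members and at 0.06 over all 3783 ORFs. The correlations are across genes and were not tested.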
